A study of Mus musculus with 10 samples.

Results

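The genes for the subunits of NMDA receptors and of a delta glutamate receptor were followed through nuclei of the mouse thalamic paraventricular nucleus (PVT) and the tissue around it. The 7 genes, Grin1, Grin2a, Grin2b, Grin2c, Grin2d, Grin3a and Grid1, were picked by symbol out of the 33502 in the gene list, and all 7 were found. Single-nucleus libraries came from tissue punches of C57BL/6J mice aged 12 weeks, with no treatment or transgene named, and the study's methods, written for 4 samples, describe 4 mice pooled into each. There were 4 libraries whose labels give no sex and 6 labelled female. A deposited column calls every nucleus of the first 4 male, so they are called male libraries here. The libraries are the replicates (n counts libraries), and mice pooled within a library cannot be separated. Whether the 6 female libraries were pooled in the same way is not stated. The 20503 nuclei were summed by library and deposited cell type. Neurons with over 1000 genes were also sorted by regional marker into a C1ql3 group (the study's marker of PVT neurons), an Adarb2 group (mediodorsal thalamus), a Gad2 group (GABAergic neurons) and an Nwd2 group (habenula). None of these markers is a receptor gene, so receptor genes could be tested between the groups.

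NMDA receptors are glutamate-gated channels that open when glutamate and a co-agonist are bound and depolarization has lifted a block by magnesium ions. Grin1 encodes the obligatory subunit. Grin2a, Grin2b, Grin2c and Grin2d encode the alternative glutamate-binding subunits, which set how strongly magnesium blocks the channel and how long it stays open, with Grin2c and Grin2d giving the weaker block. Grin3a encodes a glycine-binding subunit that lowers calcium entry, and Grid1 encodes a delta receptor that binds cerebellins and, through them, presynaptic neurexins. In the thalamus, NMDA receptors carry part of the slow excitation from cortical and subcortical inputs.

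The genes differ widely in size, so levels were compared between samples and not between genes. In the mm10 annotation Grin1 spans chr2:25291181-25319187 and is overlapped by an antisense gene, Grin1os. Grin2a spans chr16:9567898-9995560, Grin2b chr6:135713233-136173511, Grin2c chr11:115249169-115267243 and Grin2d chr7:45831883-45878378. Grin3a spans chr4:49661611-49845744 and holds Ppp3r2 and Gm12459 on its own strand, and Grid1 spans chr14:34820108-35583379. Grid1 is overlapped by 2 annotated genes on its own strand and 2 on the other, Grin2d by 1 and 2, Grin2b by 4 and Grin2c by 1 on the other strand alone, and Grin2a by none. The sources used here do not say how reads in introns and overlapping genes were counted.

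Depth differed between the sets, with a median of 5666 to 9770 UMIs per neuron in female libraries and 12586 to 21085 in male libraries. A library held 875 to 7213 nuclei, and male replicate 4 was the largest. Barcodes seen in more than 1 library numbered 46. Of 8 defining markers of the deposited cell types, 8 had their highest mean level in their own type. Levels are CPM, UMI counts brought to 1 common library size, with the sizes scaled by edgeR's TMM method within each table.

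Neurons had the highest level of Grin1, Grin2a, Grin2b and Grin2d among the 8 cell types, astrocytes had the highest level of Grin2c, and oligodendrocyte precursor cells (OPCs) had the highest mean levels of Grin3a and Grid1, without passing the test against neurons. Grin1 in neurons was 280.0 CPM in the lowest library, 325 at the median and 378 in the highest, and in OPCs, the next type, it was 66.0 ± 27.9 CPM (SD, n = 9). The ranges of neurons and OPCs did not overlap. Grin2a in neurons ran from 695 over a median of 941 to 1184 CPM, and Grin2b ran from 932 over 1324 to 1409 CPM. No library of any other type reached the neuronal range of Grin2a or of Grin2b. Grin2d was 93.1 ± 15.0 CPM in neurons (n = 10) and 38.6 ± 23.7 CPM in OPCs (n = 9), with ranges that overlapped through male replicate 4.

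**Figure D1:**
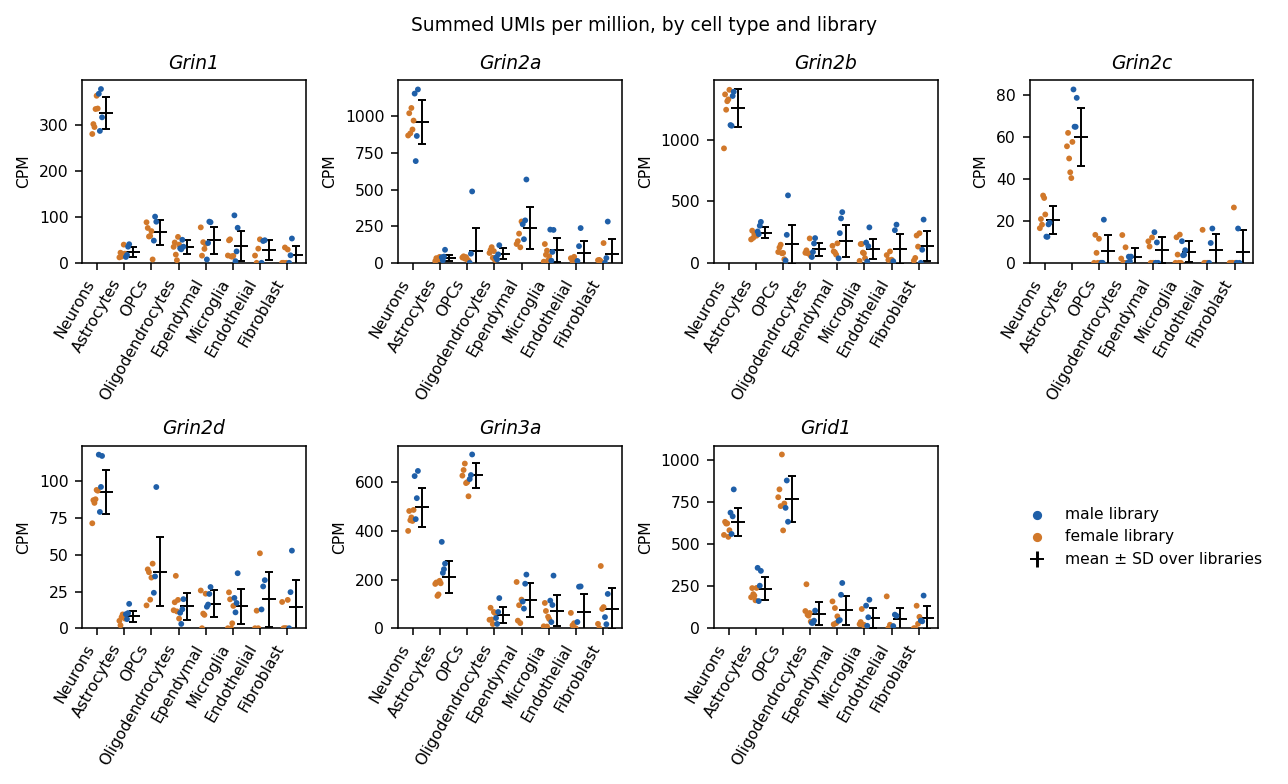
CPM of the 7 receptor genes (1 panel each, linear axis) in the 8 deposited cell types. Each point is a library, coloured by set, and the bars are mean ± SD over libraries. Grin2c stands at 40.5 to 82.8 CPM in astrocytes and 12.4 to 32.1 in neurons, and Grin3a and Grid1 have their highest means in OPCs, at 628 and 767 CPM against 496 and 629 in neurons.

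Each type was tested against the mean of the other types on the log scale with edgeR's quasi-likelihood test and the library as a block, and a gene was called at an adjusted p under 0.05 and an absolute log2 fold change over 0.5. In neurons all 7 receptor genes were called higher, beside 58.2% of the 9842 genes tested called in either direction. On the log2 scale Grin2a rose there by 3.93 (SE 0.17, adjusted p = 5.4e-33) and Grin1 by 3.31 (SE 0.14, adjusted p = 1.7e-33). Grin2c had the smallest, 1.44 (SE 0.23, adjusted p = 4.0e-08), and its direction held in 10 of 10 libraries. In such sums, fewer expressing nuclei and less RNA per nucleus cannot be told apart.

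All 7 receptor genes were called in astrocytes, 4 higher and 3 lower, beside 41.1% of genes called. The lower calls were Grin2a (log2 fold change -1.76), Grin2d (-1.44) and Grin1 (-1.05). Grin2c, whose subunit is best known from cerebellar granule cells and glia, led the higher calls, ahead of Grid1 (0.76) and Grin3a (0.62). Its level in astrocytes was 40.5 CPM in the lowest library, 59.9 at the median and 82.8 in the highest, against 12.4, 18.8 and 32.1 CPM in neurons. Every astrocyte value lay above every value of the neurons summed as 1 type. The neuron groups within that sum differed in Grin2c, as given below. The log2 fold change of astrocytes over neurons was 1.63 (SE 0.18, edgeR adjusted p = 1.5e-12, 60.3% of genes called) and over the mean of the other types 3.30 (SE 0.21, adjusted p = 1.3e-23), higher in 10 of 10 libraries. The latter value was 3.12 within the female and 3.56 within the male libraries. The deposited clusters Astrocytes (1) and Astrocytes (2) had 59.1 ± 13.4 (n = 10) and 54.4 ± 14.2 CPM (n = 9).

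The other receptor genes of astrocytes were at a fraction of the neuronal level. Grin2b was 247 ± 43.8 CPM in astrocytes (n = 10), or 19.6% of the neuronal level, and was called higher there than in the mean of the other types (log2 fold change 0.59, SE 0.20, edgeR adjusted p = 0.0099). That call was lost without the library block (0.40, adjusted p = 0.311), within the male libraries (0.53, adjusted p = 0.289) and at most 1% mitochondrial UMIs (0.074, adjusted p = 0.947). Grin1 and Grin2a were at 7.00% and 3.48% of their neuronal level. For comparison, 8 genes picked as neuronal (Rbfox3, Snap25, Syt1 and others) stood in astrocytes at 3.91% to 30.3% of their neuronal level. Grin2b, Grin1 and Grin2a lay inside or below the span of these genes, while Grin3a, at 42.1%, Grid1, at 36.7%, and Grin2c, at 337%, lay above it. Stmn2 alone set the top of the span, and the next gene, Slc17a6, stood at 16.4%, below Grin2b. The part of free RNA in the glial values was not tested.

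Grin3a and Grid1 had the largest differences in OPCs, the dividing precursors of oligodendrocytes. Grin3a was 542 CPM in the lowest OPC library, 627 at the median and 714 in the highest, against 400.1, 469 and 647 CPM in neurons. It was higher in OPCs in 9 of 9 libraries with both, yet the log2 fold change of neurons over OPCs, -0.40 (SE 0.23, edgeR adjusted p = 0.14), did not pass the test, with an interval from -0.85 to 0.05, where 50.5% of genes were called. Grid1 ran from 581 over 740.3 to 1031 CPM in OPCs and from 542 over 622 to 824 CPM in neurons, and neurons differed from OPCs by -0.32 (SE 0.25, adjusted p = 0.29). Against the mean of the other types, OPCs had log2 fold changes of 2.80 for Grid1 (SE 0.20, adjusted p = 1.6e-20) and 2.50 for Grin3a (SE 0.18, adjusted p = 4.7e-20), beside 33.4% of genes called.

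OPC levels of the neuronal genes were at 11.6% to 38.8% of the neuronal level, and Grin3a and Grid1 were at 132% and 125%. Of the neuronal genes, Rims1 and Rbfox1 stood highest, at 38.8% and 38.6%, and Syt1 and Rbfox3 lowest, at 11.6% and 12.1%. Whether OPCs make some of these genes themselves was not tested. In mature oligodendrocytes Grin3a was 55.1 ± 32.8 CPM (n = 10), and its log2 fold change there was -1.57 (SE 0.24, edgeR adjusted p = 4.0e-08). Grin1 (0.65), Grin2d (0.95), Grin2a (-0.81) and Grin2b (-0.62) were also called in OPCs. Of these, Grin1 was lost without female replicate 1, 2 or 4 or male replicate 3 (down to 0.52), Grin2a without female replicate 2 or 5 or male replicate 2 (-0.74 to -0.68), and Grin2b without female replicate 2, 4, 5 or 6 or male replicate 2 or 3 (-0.69 to -0.50). Grin2a and Grin2b in OPCs carried 1 library far from the rest. Grin2a was 488 CPM in male replicate 4 and 0 to 62.4 CPM in the other 8, where the median of the neuronal genes stood at 53.3% of the neuronal level in that library and at most 35.6% in the others.

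Ependymal cells, which line the ventricle beside the PVT, had more Grin2a than the other non-neuronal types, at 106 CPM in the lowest library, 199.5 at the median and 569 in the highest. Against the other types it was higher by 1.42 on the log2 scale (SE 0.23, edgeR adjusted p = 2.1e-07, 45.9% of genes called), and none of the other 6 genes was called there. Grin2a stood at 24.3% of its neuronal level, inside the span of the neuronal genes in ependymal cells, 13.5% to 29.2%. Only Stmn2, at the top of that span, was above it, and the next gene, Snap25, stood at 21.3%. In oligodendrocytes 6 of 7 genes were called lower (46.7% of genes called). In microglia (50.3% called) and endothelial cells (40.3%) 3 were called lower, in fibroblasts (22.2%) 2, and none was called higher in these types. Of these calls, Grin2a and Grin2d in oligodendrocytes were lost without male replicate 3 (-0.60 and -0.54) or male replicate 4 (-0.45 and -0.49). Grid1 in fibroblasts was lost without female replicate 1 (-1.08) or male replicate 3 (-1.10), Grin1 in fibroblasts without any of 6 libraries (-1.58 to -1.25), and Grin2b in endothelial cells without any of 6 libraries (-0.83 to -0.69).

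Nuclei of at least 2000 UMIs were thinned to that number and shallower ones were left out, so the shares cover 4308 of 5302 astrocytes, 563 of 993 microglia, 378 of 471 OPCs and 10213 of 10410 neurons. Grin2c was then seen in 9.22% ± 1.82 (SD, n = 10) of astrocytes and 2.19% ± 0.71 of neurons, against 0.318% ± 0.557 of microglia, which stand as background. Without thinning these shares were 13.7% ± 4.94, 9.13% ± 2.82 and 1.63% ± 1.49. The median depth before thinning was 3006.5 UMIs in astrocytes, 11157 in neurons and 2168 in microglia. Grid1 was seen in 72.6% ± 8.07 of OPCs (n = 9), 53.9% ± 3.50 of neurons and 7.70% ± 7.52 of microglia. Grin3a was seen in 65.9% ± 7.14 of OPCs, 48.5% ± 4.05 of neurons and 9.13% ± 7.61 of microglia.

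The regional marker groups held 4101 nuclei for C1ql3, 1705 for Adarb2, 876 for Nwd2 and 214 for Gad2 out of 10307, and 3411 nuclei had too little or too mixed a marker signal and stayed unassigned. Genes outside the sorting rule, some of them from the study's own marker lists for these nuclei, were read as a check. Tspear, read as a mediodorsal gene, was 178 ± 29.1 CPM in the Adarb2 group and 10.0 ± 3.94 in the C1ql3 group, and Robo3 was 499.5 ± 107 CPM in the Nwd2 group and at most 0.924 on average elsewhere. The Gad2 group had a sum of at least 10 nuclei in only 6 libraries, 118 of its 214 nuclei were in 1 deposited cluster, and it held Slc32a1, the vesicular GABA transporter, at 65.8 ± 44.0 CPM. It is called by its marker only. Neurons of the intermediodorsal thalamus have no marker of their own in this rule, and their marker Cdh24 was highest in the Adarb2 group, 24.5 ± 4.89 CPM.

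Among neurons, Grin2c was highest in the Adarb2 group. Its level there was 43.9 CPM in the lowest library, 68.2 at the median and 91.0 in the highest, on 1454 UMIs in all. The C1ql3 group ran from 0 over 2.07 to 4.30 CPM on 127 UMIs, with 1 library at 0, and the Nwd2 group had 13 UMIs, with 6 of 10 libraries at 0. No library of another group overlapped the Adarb2 range, where 24.2% of the 12184 genes tested were called between the Adarb2 and C1ql3 groups. The log2 fold change of Adarb2 over C1ql3 was 4.88 (SE 0.19, edgeR adjusted p = 3.6e-23), a fold of 29.5, and it was 4.82 within the female and 4.87 within the male libraries.

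At 2000 UMIs per nucleus, 10.8% ± 3.02 (n = 10) of Adarb2 nuclei held a Grin2c UMI and 0.243% ± 0.258 of C1ql3 nuclei did, the latter below the microglial share given above. Median depths of the groups were 13104 and 12870 UMIs. The share in the Adarb2 group was 41.9% ± 8.61 without thinning. In astrocytes the share at 2000 UMIs, given above, was 9.22% ± 1.82.

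**Figure D2:**
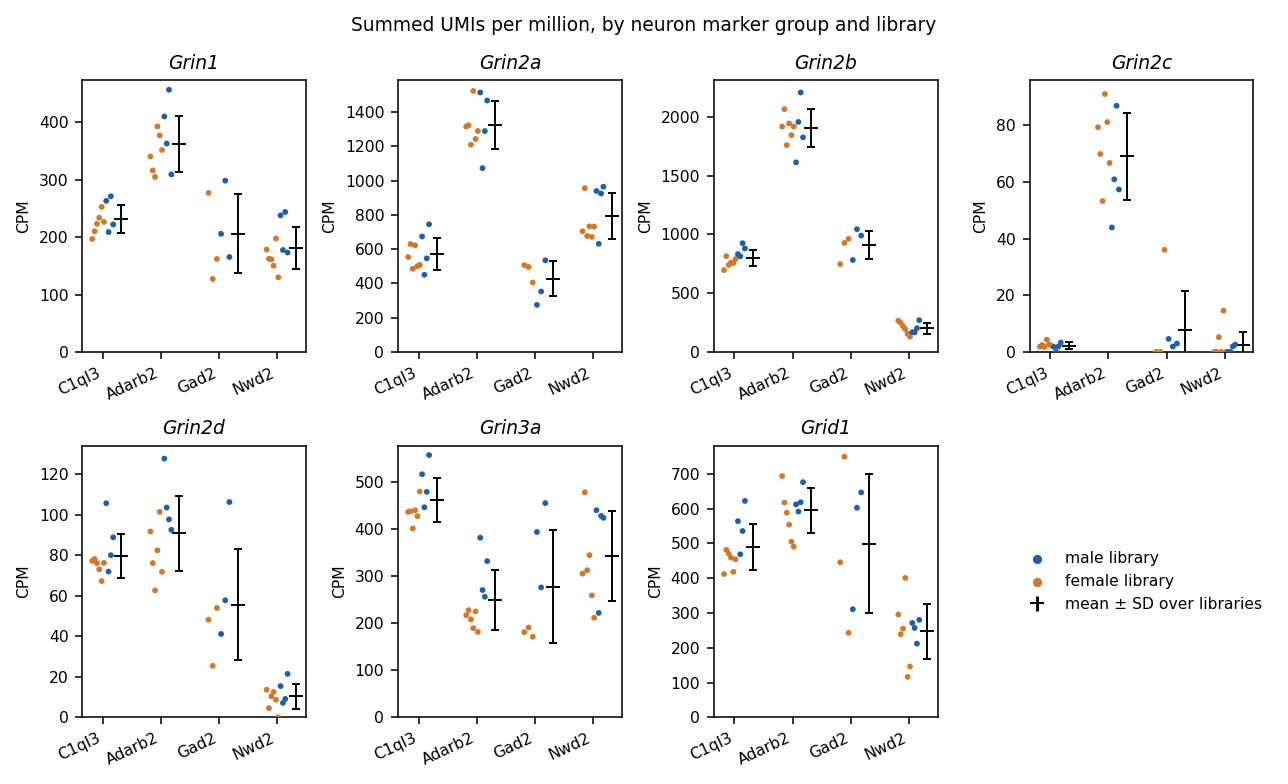
CPM of the 7 receptor genes (1 panel each, linear axis) in the neuron groups sorted by C1ql3, Adarb2, Gad2 and Nwd2. Each point is a library, coloured by set, and the bars are mean ± SD; the Gad2 group has 6 libraries. Grin2c stands at 43.9 to 91.0 CPM in the Adarb2 group, and Grin2b and Grin2d are lowest in the Nwd2 group.

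Grin2b, which encodes the subunit of slow, plasticity-linked receptors, spanned the widest range of the abundant genes. It was 1613 CPM in the lowest Adarb2 library, 1918 at the median and 2208 in the highest. In the C1ql3 group the same values were 696, 802 and 925 CPM, and in the Nwd2 group 130.0, 198 and 270.1 CPM. These 3 groups did not overlap with each other in any library. The log2 fold change was 1.86 for the Adarb2 group against the mean of the others (SE 0.07, edgeR adjusted p = 2.9e-24, 28.0% of genes called) and -2.43 for the Nwd2 group (SE 0.09, adjusted p = 4.3e-25, 38.8% of genes called), in 10 of 10 libraries each.

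Grin2d, whose subunit gives receptors of the slowest decay, was also low in the Nwd2 group. It ran from 0 over 9.74 to 21.4 CPM there, from 67.3 over 76.8 to 106 CPM in the C1ql3 group and from 62.7 over 92.2 to 128 CPM in the Adarb2 group. The Nwd2 range lay below that of every other group. The log2 fold change of the Nwd2 group was -2.73 (SE 0.15, edgeR adjusted p = 1.5e-18), and the C1ql3 and Adarb2 groups differed by 0.20 (SE 0.09, adjusted p = 0.055), with an interval from 0.03 to 0.37. After thinning, 2.13% ± 1.93 of Nwd2 nuclei had a Grin2d UMI, against 12.6% ± 1.54 of C1ql3 nuclei and 1.75% ± 3.41 of microglia.

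Grin2a, the subunit gene of faster mature receptors, was ordered differently. It was 1325 ± 142 CPM in the Adarb2 group, 793 ± 135 in the Nwd2 group, 571 ± 93.6 in the C1ql3 group (n = 10 each) and 428 ± 102 in the Gad2 group (n = 6). The Nwd2 group was above the C1ql3 group in 10 of 10 libraries, although their ranges overlapped and the difference, 0.48 on the log2 scale, was just under the fold threshold (SE 0.07, edgeR adjusted p = 3.2e-07). The Adarb2 group was called higher (log2 fold change 1.22, SE 0.06, adjusted p = 2.4e-20) and the Gad2 group lower (-1.03, SE 0.09, adjusted p = 6.1e-11, 9.86% of genes called). By deposited clusters in place of the marker groups, the Gad2 value was -0.50.

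The balance of Grin2b to Grin2a UMIs within a sum needs no library size and was read for its change between groups only. It was 1.43 ± 0.220 in the C1ql3 group (n = 10), with a range of 1.18 to 1.81, and 1.46 ± 0.222 in the Adarb2 group, with a range of 1.07 to 1.82. In the Nwd2 group it was 0.257 ± 0.0615, with a range of 0.178 to 0.377, and no library overlapped with the C1ql3 or Adarb2 ranges. The Gad2 group had 2.23 ± 0.597 (n = 6). In a 2-sided exact sign-flip permutation test over libraries, with 3 comparisons adjusted together, the log2 ratio was higher in the C1ql3 than in the Nwd2 group by 2.49 ± 0.443 (SD, n = 10, p = 0.00195, the smallest this test can give, adjusted p = 0.00586). The C1ql3 and Adarb2 groups differed by -0.03 ± 0.140 (exact p = 0.551, adjusted p = 0.551), and 4 of 10 libraries were higher in the C1ql3 group. The Gad2 group exceeded the C1ql3 group by 0.588 ± 0.195 in 6 of 6 libraries (exact permutation p = 0.0312, the smallest for 6 libraries, adjusted p = 0.0469). With any 1 of these 6 libraries left out, 5 remain and the adjusted p was 0.0938. In the deposited cluster led by Gad2, Neurons (5), the ratio was 1.55 ± 0.352 (n = 9). In Neurons (1), (2) and (4), led by C1ql3, it was 1.24, 1.69 and 2.77 on average, and 40 nuclei of the Gad2 group were in Neurons (4).

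**Figure D3:**
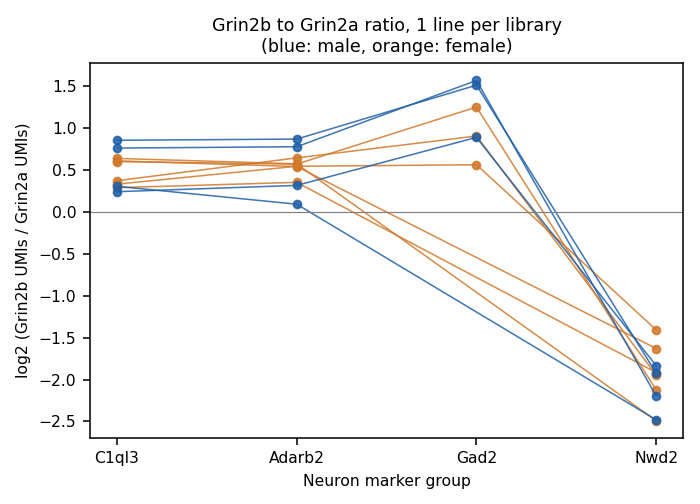
Log2 ratio of Grin2b to Grin2a UMIs (vertical axis) in the 4 neuron groups, 1 line per library. Libraries without a Gad2 sum pass straight from Adarb2 to Nwd2. All 10 lines fall below 0 in the Nwd2 group and stand above 0 in the C1ql3 and Adarb2 groups.

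Grin1 and the remaining genes differed less. Grin1, needed in every NMDA receptor, was 362 ± 48.6 CPM in the Adarb2 group, 231 ± 24.5 in the C1ql3 group and 181 ± 36.3 in the Nwd2 group (n = 10 each), and the Adarb2 and C1ql3 ranges did not overlap. The Adarb2 group was higher by 0.79 on the log2 scale (SE 0.06, edgeR adjusted p = 3.8e-14). The Nwd2 group, at -0.47 (SE 0.07, adjusted p = 5.7e-07), stayed under the fold threshold. It passed the threshold within the female libraries (-0.52) and with a gate of 4 UMIs (-0.51). Its mean Grin1 level was the lowest of all groups, as were its Grin2b and Grin2d levels.

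Grin3a was the NMDA receptor gene with its highest mean in the C1ql3 group. It ran from 401 over 443 to 557 CPM there and from 181 over 226 to 381 CPM in the Adarb2 group, with no overlap. On the log2 scale Adarb2 minus C1ql3 was -0.91 (SE 0.10, edgeR adjusted p = 6.3e-10), in 10 of 10 libraries. The Nwd2 group came next, at 342 ± 95.9 CPM. The C1ql3 group was above it in 9 of 10 libraries, but their ranges overlapped and the difference was not called. Against the mean of the others the C1ql3 group was at 0.68 (SE 0.09, adjusted p = 3.3e-08, 19.0% of genes called). Grid1 was 595 ± 65.4 CPM in the Adarb2 group, 489 ± 66.2 in the C1ql3 group and 247 ± 79.2 in the Nwd2 group (n = 10 each). The Nwd2 group was lower, at -1.10 on the log2 scale (SE 0.11, adjusted p = 8.3e-12), and lay under the C1ql3 range in every library.

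In all, 7 of 7 receptor genes were called in the Adarb2 group (6 higher, 1 lower) against the mean of the others, beside 28.0% of all genes. Against single groups, Grid1 was not called over C1ql3 (0.28) or Gad2 (0.28), nor Grin2d over C1ql3 (0.20) or Gad2 (0.49). Grin3a was not called lower than in Gad2 (-0.23) or Nwd2 (-0.47). In the C1ql3 group 3 were called (2 higher, 1 lower), beside 19.0%, in the Nwd2 group 4 (all lower), beside 38.8%, and in the Gad2 group 2 (1 each way), beside 9.86%. The lower calls of Grin2c rested on few UMIs, 127 in the C1ql3 group and 13 in the Nwd2 group, and were lost when nuclei were thinned. Thinning lowers these counts further, and the part of depth in the loss was not tested. With nuclei thinned to 3000 UMIs, Grin2c went from -1.77 to -0.37 in the C1ql3 group (adjusted p = 0.976) and from -2.22 to -0.86 in the Nwd2 group (adjusted p = 0.988), and in the C1ql3 group it was also lost within the male libraries (adjusted p = 0.0589) and with a gate of 4 UMIs (adjusted p = 0.0525). Of these, Grin2d in the Gad2 group (0.57, SE 0.17, edgeR adjusted p = 0.020), was lost without male replicate 3 (adjusted p = 0.060) and fell to 0.28 without male replicate 4 (adjusted p = 0.42). Grin3a in the Adarb2 group (-0.54) was under the fold threshold within the male libraries (-0.48), with Gad1, Gad2 and Slc32a1 summed in the sorting rule (-0.46) and when thinned (-0.45, adjusted p = 0.0685). Grid1 in the Adarb2 group (0.61) was under it at most 1% mitochondrial UMIs (0.46) and with a gate of 1 UMI (0.42).

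The deposited neuron clusters, given as a description because they were built from all genes, divide the neurons further. Grin2c was 91.8 ± 15.6 CPM in Neurons (3), 18.1 ± 9.96 in Neurons (8) and 5.76 ± 3.41 in Neurons (7), and at most 3.00 on average in the other 5. The Adarb2 group took in 92.4% of the nuclei of Neurons (3), 34.1% of Neurons (8) and 40.6% of Neurons (7), and 47.5% and 46.4% of the latter pair stayed unassigned. Neurons (3) held Grin3a at 184 ± 46.1 CPM, against 381 ± 75.6 in Neurons (7) and 355 ± 55.2 in Neurons (8). Grin2b was 2119 ± 198 CPM in Neurons (3) and 148 ± 33.6 in Neurons (6), the cluster led by Nwd2, where Grin2d was 7.00 ± 5.15 CPM. Grin2a was lowest in Neurons (4), at 298 ± 76.1 CPM, where Grin2b was 784 ± 66.8 (n = 10 in each of these clusters). Neurons (1), (2) and (4), all led by C1ql3, had Grin2a at 624, 499.9 and 298 CPM on average and Grin2b at 765, 827 and 784.

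**Figure D4:**
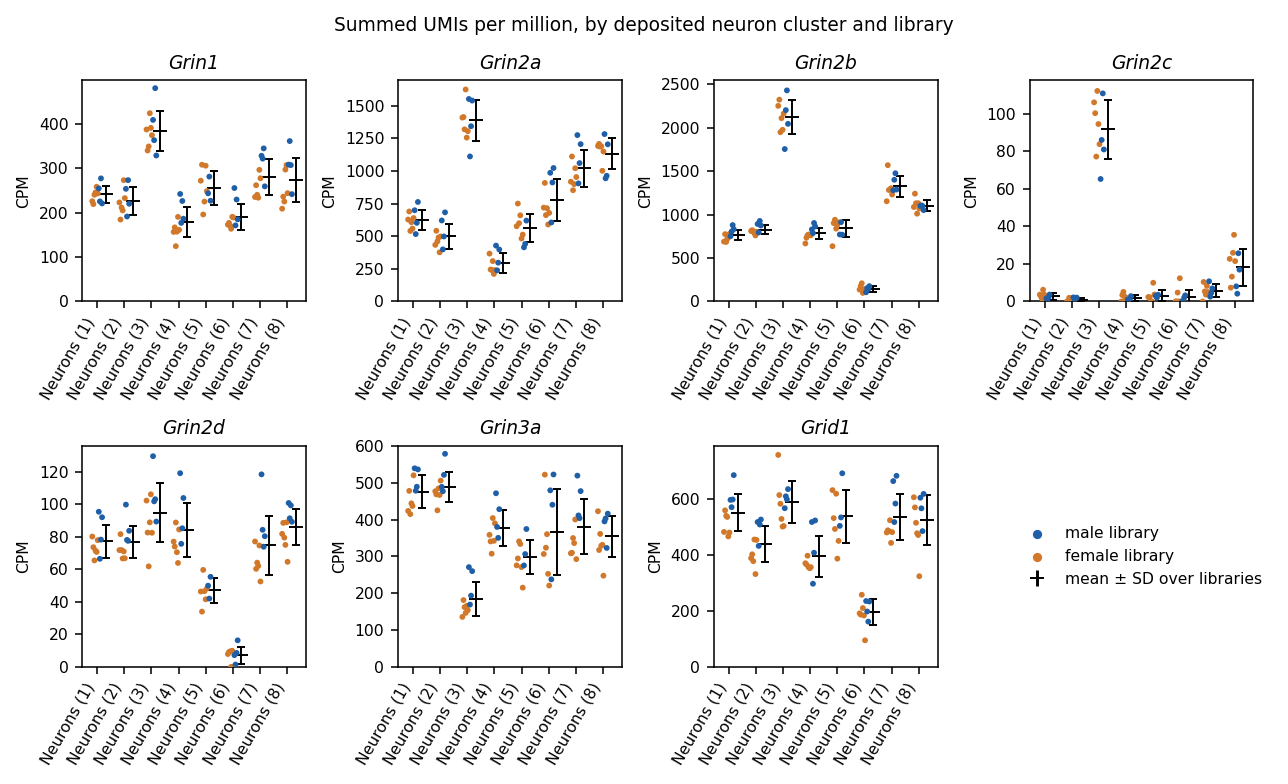
CPM of the 7 receptor genes (1 panel each, linear axis) in the deposited clusters Neurons (1) to Neurons (8). Each point is a library, coloured by set, and the bars are mean ± SD. Grin2c is highest in Neurons (3), with 91.8 ± 15.6 CPM, and Grin2a is lowest in Neurons (4), with 298 ± 76.1 CPM.

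Within the C1ql3 group, nuclei were split by Col12a1, Cadps2 and Npsr1, each in the study's marker list of a different PVT subtype, into groups of 776, 759 and 159 nuclei, with 2407 remaining. The Cadps2 group held other genes of its subtype, Insrr at 35.5 ± 8.75 CPM against 1.83 ± 2.27 in the Col12a1 group, and the Col12a1 group held Pde3a at 35.9 ± 14.5 CPM against 4.68 ± 3.67 (n = 10 each). The Npsr1 group had sums in only 4 libraries, 2 of them with 12 nuclei or fewer. Grin2c did not pass the filter on low counts here, with 1 to 70 UMIs in a group, so 6 of the 7 genes were tested.

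Grin2a set the Cadps2 group apart. It was 230.2 CPM in the lowest Cadps2 library, 325 at the median and 516 in the highest, and in the Col12a1 group the same values were 440, 665 and 952 CPM. The ranges of these groups overlapped between libraries, but within each of the 10 libraries the Cadps2 group was lower than the Col12a1 group and the remaining nuclei. Compared with the average over the remaining groups, Grin2a in the Cadps2 group stood at -0.87 on the log2 scale (SE 0.06, edgeR adjusted p = 5.6e-19, 11.7% of the 11185 genes tested called), and it was -1.02 within the female and -0.76 within the male libraries. Grin2b hardly moved there, at 819 ± 89.5 CPM in the Cadps2 group and 763 ± 74.7 in the Col12a1 group, with a log2 fold change of 0.02 (SE 0.05, interval -0.06 to 0.11) for Cadps2. The ratio of Grin2b to Grin2a UMIs was 2.55 ± 0.584 in the Cadps2 group (n = 10), 1.20 ± 0.302 in the Col12a1 group (n = 10) and 1.55 ± 0.222 in the Npsr1 group (n = 4).

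Grid1 was highest in the Col12a1 group, at 623 ± 106 CPM against 420 ± 61.6 in the Cadps2 group and 483 ± 54.4 in the remaining nuclei (n = 10 each). The log2 fold change was 0.51 (SE 0.05, edgeR adjusted p = 2.0e-12, 11.6% of genes called), higher in 10 of 10 libraries. This value sits on the fold threshold and went below it once male replicate 3 (0.49) or female replicate 2 or 3 (0.50 each) was left out. Grin3a in the Cadps2 group, at -0.32 on the log2 scale (SE 0.05, adjusted p = 1.5e-06), was under the threshold, and no receptor gene was called in the Npsr1 group (4.87% of genes called) or the remaining nuclei (4.18%).

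**Figure D5:**
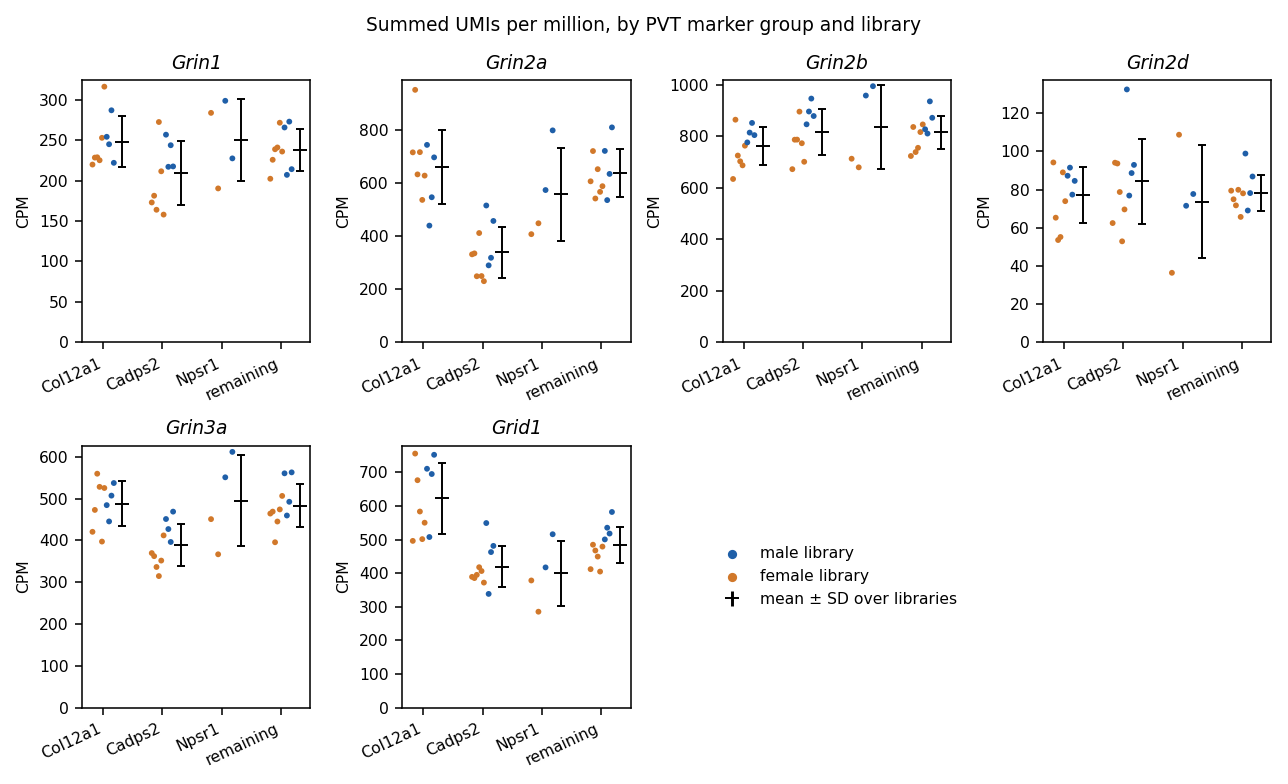
CPM of 6 receptor genes (1 panel each, linear axis) in nuclei of the C1ql3 group split by Col12a1, Cadps2 and Npsr1, with those of no marker as remaining. Each point is a library, coloured by set, and the bars are mean ± SD; the Npsr1 group has 4 libraries. Grin2a is lowest in the Cadps2 group, 339 ± 95.1 CPM, while Grin2b lies between 763 and 837 CPM on average in all groups.

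Female and male libraries were compared over all neurons and over the C1ql3 group. The sets also differ in depth and gene annotation, so sex cannot be told apart from these. Only genes with at least 20 UMIs in each set were tested. None of the 7 genes was called over all neurons (4.06% of the 13976 genes tested were called) and none of 6 over the C1ql3 group (3.68% of 12183). The largest differences over all neurons were 0.60 for Grin2c (SE 0.22, edgeR adjusted p = 0.15), from 12.2 ± 2.74 CPM in male (n = 4) to 19.0 ± 5.13 in female libraries (n = 6), and -0.30 for Grin3a (SE 0.09, adjusted p = 0.10), from 440 ± 55.3 to 362 ± 19.7 CPM. At an unadjusted p under 0.05 there were 2 of 7 over all neurons and 1 of 6 over the C1ql3 group, and DESeq2 also called 0 in both. The difference between the Adarb2 and C1ql3 groups was not called to differ between the sets for any of the 7 genes (0.380% of genes called), and Grin3a came nearest, at -0.35 (SE 0.10, adjusted p = 0.086).

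A list of 35 genes that act with these receptors, namely further receptor subunits, postsynaptic scaffolds, kinases, co-agonist metabolism, cerebellins and neurexins, was counted beside them. Of 33 that could be tested, 15 were higher and 6 lower in the Adarb2 group, 6 higher and 4 lower in the C1ql3 group, 7 higher and 0 lower in the Gad2 group, and 4 higher and 17 lower in the Nwd2 group. The shares of all genes called in these groups were 28.0%, 19.0%, 9.86% and 38.8%. The median log2 fold change of the list was 0.38, 0.04, -0.03 and -0.51, beside 0.00, 0.01, -0.04 and 0.02 over all genes. For the 7 receptor genes the same medians were 1.22, 0.19, -0.23 and -1.10.

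Grin3b, the other glycine-binding subunit gene, was highest in the Nwd2 group, at 9.98 ± 6.51 CPM on only 64 UMIs, and at most 2.01 on average elsewhere (log2 fold change 4.72, SE 0.44, edgeR adjusted p = 3.5e-12). Ptk2b, a tyrosine kinase that acts on NMDA receptors, was 95.7 ± 12.3 CPM in the Adarb2 group and 4.71 ± 3.82 in the Nwd2 group. Nrxn3, a presynaptic neurexin, was 2989 ± 479 CPM in the Adarb2 group, 3379 ± 1760 in the Gad2 group, 334 ± 87.7 in the C1ql3 group and 272 ± 76.2 in the Nwd2 group. Cbln1, a cerebellin, was lower in the Adarb2 group at 1.42 ± 1.42 CPM (log2 fold change -2.40, SE 0.34, adjusted p = 1.2e-07). This rested on only 31 UMIs, with 3 of 10 libraries at 0, and the other groups averaged 3.90 to 15.9 CPM. Dlgap2, a postsynaptic scaffold, was 416 ± 67.2 CPM in the C1ql3 group and 602 ± 406 in the Gad2 group, and Neto1, an auxiliary subunit, was 72.4 ± 17.2 and 126 ± 73.6. There were 6 libraries in the Gad2 group and 10 in the others.

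Genes whose levels followed each receptor gene most closely over the 36 sums of library and neuron group were listed as a description, with the sums sharing 10 libraries. Grin2c was followed by Myo5c (Pearson r = 0.925), Prkcd (0.921) and Plekhd1 (0.894). Grin2b was followed by Kalrn (0.973), Kctd16 (0.963) and Cdh4 (0.955), and Grin2d by Frmd5 (0.975), Cacna2d1 (0.966) and Phactr3 (0.965). For Grin2a these were Lef1 (0.933), Zfp462 (0.918) and Anks1b (0.916), for Grid1 Tmem132b (0.908), Thrb (0.904) and Ppp3ca (0.903), for Grin1 Dlgap4 (0.866), Bmp6 (0.860) and Atp6ap1l (0.853), and for Grin3a Radil (0.847), Dpysl5 (0.829) and Lsamp (0.812).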

How the data were processed

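Nuclei were sequenced as 10x Genomics 3′ v3 libraries. The deposited matrix holds counts, whole UMIs per gene and nucleus made by the authors with Cell Ranger (6.1.1 and mm10 in the submitters' processing notes, whereas the methods name an earlier release) and not normalized. The deposited metadata gave cluster names and the percent of mitochondrial UMIs, which the authors computed, and 21 further columns were not used. The authors removed doublet clusters, and no doublet caller was run here. The receptor genes and lists were chosen with earlier results of these data known.

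Sums of UMIs over the nuclei of a class in a library were used where at least 10 nuclei entered, and genes were kept by filterByExpr. edgeR 4.0.16 (R 4.3.3) fitted class and library and compared a class with the average of the remaining classes, with Benjamini-Hochberg adjustment over all genes. The fits were checked on simulated counts. Neurons with over 1000 genes joined the group of the marker with the highest value per 10000 UMIs relative to its 99th percentile, if it had at least 2 UMIs and 2 times the next scaled value. The same rule split the C1ql3 group. Classes of 1 library are paired through the library block, since they come from the same sample, and replicate numbers of the sets name different samples. P-values of class comparisons and of the ratio test measure how a difference between classes varies over libraries. Those between the sets measure the spread between libraries. The ratio test used scipy 1.17.1.

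Genes named were the 7 receptor genes, up to 4 called genes of the pathway list per neuron group, and the 3 genes most alike each. Some items under these rules are not reported here. Alternatives were DESeq2 1.42.0, its size factors, no filter, each library or set left out, no library block, a limit of 1% mitochondrial UMIs, other marker rules and thinning. A further pair was added after seeing the data: a group by Gad1, Gad2 and Slc32a1 together, and nuclei of shared barcodes left out.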

Additional observations from a re-analysis of the deposited data

Results flagged for a closer look

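Of 112 groups of 4 to 10 libraries tested, 15 held a highest library whose gap to the next exceeded Dixon's 95% critical value. That value gives about 1 in 20 by chance for independent values of normal spread. Some groups here hold few UMIs and the groups share libraries, so the count was not read against that rate. Male replicate 4, the library with the most nuclei, accounted for 8 of the 15. There Grin2a was 89.1 CPM in astrocytes (11.8 to 42.3 in the others), 569 in ependymal cells (106 to 290.0) and 488 in OPCs (0 to 62.4, on 71 UMIs). In the same library Grin2b was 549 CPM in OPCs (19.3 to 228), Grin2d was 96.2 in OPCs (15.6 to 44.0) and 52.8 in fibroblasts (0 to 24.6, on 3 UMIs), Grin3a was 216 in microglia (6.95 to 113) and Grid1 was 824 in neurons (542 to 686).

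The other 7 lay in 6 libraries. Female replicate 5 had Grin2c at 36.0 CPM in the Gad2 group on 4 UMIs and at 14.5 in the Nwd2 group on 5 UMIs, against at most 4.57 and 5.21 in the others. Grid1 was 189 CPM in endothelial cells of female replicate 1 on 12 UMIs and 261 in oligodendrocytes of female replicate 2, against at most 80.6 and 104. Grin2d was 35.7 CPM in oligodendrocytes of female replicate 3 on 8 UMIs and 132 in the Cadps2 group of male replicate 1, against at most 19.8 and 94.1. Grin2c in the Npsr1 group was 0.905 CPM in male replicate 3, on 1 UMI, and 0 in the others.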

How the results depend on the processing

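Of the calls of receptor genes, 14 of 35 between cell types, 11 of 16 between neuron groups and 1 of 2 between PVT groups were kept under every alternative tried. With nuclei of at most 1% mitochondrial UMIs, 13691 of 20469 nuclei and 47 of 73 cell type sums were left, calls between cell types fell from 35 to 14 and genes called from 33285 to 14498, and Grin1 in astrocytes (0.11), Grin2a in OPCs (0.33), Grin2b in OPCs (0.085) and endothelial cells (0.36) and Grin3a in endothelial cells (0.39) turned to higher. None of these values passed the test. In that run OPCs and endothelial cells had sums in 2 libraries each and fibroblasts in 1. Grin1 in fibroblasts stood at -10.44 there, and it enters the mean that the other types are compared with. Grin2d in oligodendrocytes turned to 0.018 in the female libraries. Without the filter 52960 genes were called between cell types. Without the library block, which carries the pairing, there were 27, 15 and 2 receptor calls between cell types, neuron groups and PVT groups, and 2299 genes in place of 3623 between PVT groups. There, female libraries alone gave 1967 genes and thinning to 3000 UMIs gave 286, and 1 receptor call was left with 1 UMI, with a margin of 1 and with thinning. Between neuron groups, thinning gave 6032 genes in place of 11647. Between the sets, pairing by replicate number, which marks no shared animal, gave 221 genes in place of 567 over neurons and 199 in place of 448 over the C1ql3 group. At most 1% mitochondrial UMIs gave 1 receptor call over neurons in place of 0 (Grin2c, 0.85). For the interaction a gate of 4 UMIs gave 1 in place of 0 (Grin3a, -0.53), and a gate of 1 UMI gave 17 genes in place of 41. The Grin2b to Grin2a difference of the C1ql3 from the Adarb2 group turned to 0.026 when thinned, and from the Gad2 group it was -0.92 with 4 UMIs and -0.67 with a margin of 4, both no longer passing. The share of Adarb2 nuclei with Grin2c was 5.48% at 1000 UMIs and 41.9% unthinned. The cause was not tested in any of these.

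Leaving out 1 library at a time gave 29 to 35 receptor calls and 30908 to 33613 genes between cell types, 15 to 16 and 10963 to 12167 between neuron groups, and 1 to 2 and 2819 to 3879 between PVT groups. It gave 401 to 1428 genes between the sets over neurons and 307 to 1175 over the C1ql3 group. The ratio differences ran from -0.05 to -0.00 (Adarb2), -0.66 to -0.54 (Gad2) and 2.42 to 2.58 (Nwd2).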
